A study of Mus musculus with 222 samples.

Results

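The major histocompatibility complex (MHC) class II genes were followed across 214 arrays of mouse mammary tumors and 8 arrays of normal mammary glands. The set named 7 genes: H2-Aa, H2-Ab1, H2-Eb1, H2-DMa, H2-DMb1, Cd74 and Ciita. Each gene was read from the probe set that carried its symbol alone and had the highest mean over all arrays. This gave 6 of the 7 genes, of 19938 genes with such a probe set. H2-DMb1 was left out because its probe set is shared with H2-DMb2. Each measured member had 1 probe set. Values are log2 signals normalized by robust multiarray averaging (RMA), so a difference of 1 is a 2-fold change.

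All tumors arose in female mice with an MMTV-ErbB2 transgene, an ErbB2 gene under the mouse mammary tumor virus promoter, which is active mainly in mammary epithelium. The tumor arrays were 160 F1BX, 28 F1 and 26 FVB, and by their names 2 F1BX tumors were each measured on 2 of them. FVB stands for FVB/N, F1 for the cross of C57BL/6 with FVB/N, and F1BX for the backcross of transgenic F1 males to FVB/N females. At an autosomal locus an F1 mouse therefore has 1 allele from each strain, and an F1BX mouse has either that pair or a pair of FVB/N alleles. The 8 normal mammary glands were 2 F1 MMTV-ErbB2, 3 F1 wild type and 3 FVB MMTV-ErbB2. The age of each mouse at collection was not given in the sources used here. Apart from these repeats, replicates were taken as arrays of different tumors or glands, and tumors of one mouse were treated as related. By their names, F1_6T1 and F1_27T1 may be of the same mice as F06T1 and F27T1. They were counted as different mice.

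Class II molecules present peptides from the endosome to CD4 T cells. They are made mainly by dendritic cells, macrophages and B cells, and epithelial cells can make them after interferon gamma. H2-Aa and H2-Ab1 encode the alpha and beta chains of I-A, and H2-Eb1 encodes the beta chain of I-E. Cd74 encodes the invariant chain, which fills the groove of a new class II molecule and guides it to the endosome. H2-DMa and H2-DMb1 encode the chains of H2-DM, which exchanges the last piece of the invariant chain for peptide. Ciita is the coactivator that turns the whole set on. It binds no DNA itself and acts through RFX, CREB and NF-Y proteins on the X1, X2 and Y boxes of class II promoters. The chain genes and H2-DM lie in the MHC on chromosome 17 and therefore carry the haplotype of the parent strain, C57BL/6 having the b haplotype and FVB/N the q haplotype. Cd74 and Ciita lie on other chromosomes, so both segregate apart from the MHC in the backcross.

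The promoters are shown because all members share the same regulator, while their levels differed between the backgrounds in different ways. A promoter window of 300 bases, 250 before and 50 after the start, was at hand from RefSeq (GRCm38.p6, a C57BL/6 sequence) for 4 members: H2-Aa, H2-Eb1, H2-DMa and H2-DMb1. In the stretches below, capitals mark matches on either strand to the X1 box (TAG, any base, AAC, any base, GATG), the X2 box TGACGTCA or the Y box TGATTGG, which did not overlap.
H2-Aa, chr17:34287847-34287917, minus strand: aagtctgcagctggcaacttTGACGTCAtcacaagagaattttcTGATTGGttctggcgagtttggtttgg
H2-Eb1, chr17:34305754-34305832, plus strand: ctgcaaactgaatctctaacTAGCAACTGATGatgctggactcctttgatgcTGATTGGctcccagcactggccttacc
H2-DMb1, chr17:34153075-34153154, plus strand: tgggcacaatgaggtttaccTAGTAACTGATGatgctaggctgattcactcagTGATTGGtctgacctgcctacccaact
In H2-Eb1 the X1 match began 93 bases before the start and 20 bases lay between it and the Y match. In H2-DMb1 the X1 match began 96 bases before the start with a spacer of 21 bases. In H2-Aa the X2 and Y matches were 16 bases apart, and the Y match began 50 bases before the start. The 2 windows of H2-DMa held none of these letters. Over all 32851 promoter windows, 0.0548% held the X1 letters, 1.79% the X2 letters and 7.82% the Y letters. A match describes letters only.

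The spread of the values put the arrays into 2 sets. A narrow set of 34 arrays had interquartile ranges of 1.86 to 2.62, and a wide set of 188 arrays had 3.04 to 3.35. The narrow set held 20 F1BX tumors, 6 F1 tumors and all 8 glands, and the other 188 arrays were of 140 F1BX tumors, 22 F1 tumors and every FVB tumor. Comparisons were made within a set unless stated. FVB MMTV-ErbB2 gland replicate 3 had the lowest interquartile range, 1.86, and its values are given apart below. The mean of 8 luminal epithelium markers was 10.96 ± 0.31, 11.06 ± 0.15 and 11.02 ± 0.13 (SD) in the wide F1BX, F1 and FVB tumors. Erbb2 was at 12.39 ± 0.32, 12.38 ± 0.21 and 12.45 ± 0.20 (SD) in the wide F1BX, F1 and FVB tumors. The F1 tumor 051T1 and the FVB tumor 063T1 have names of the F1BX form, and their labels were kept. In whole tissue, fewer cells of a type and less RNA per cell cannot be told apart.

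**Figure D1:**
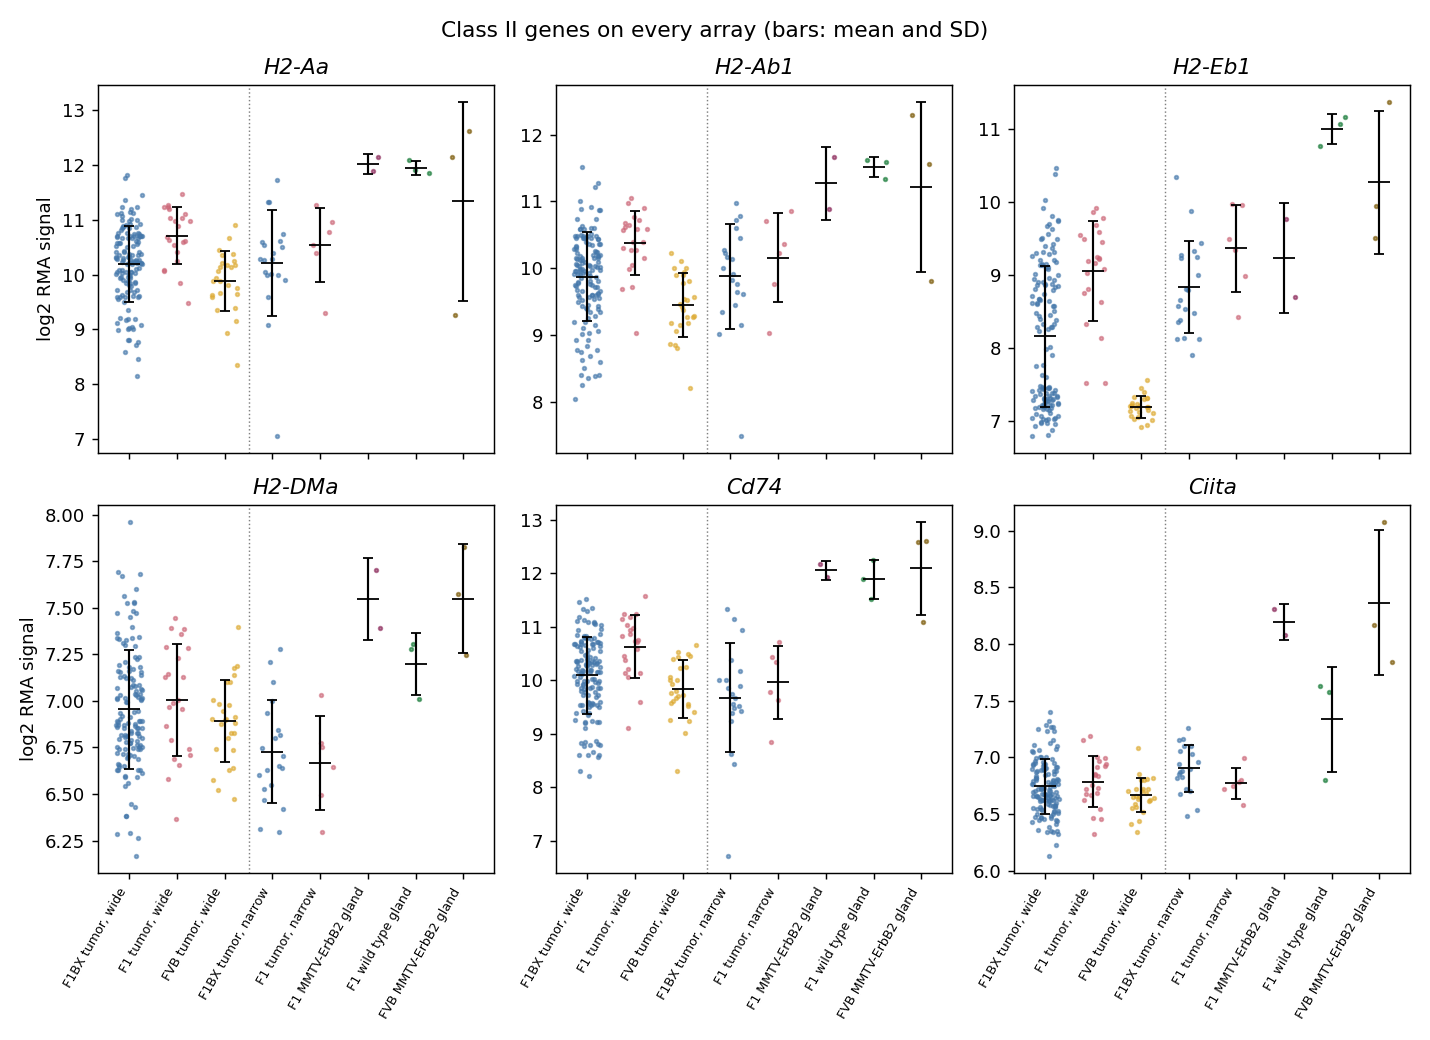
Log2 RMA signal (y axis) of the 6 measured class II genes on each array, by group and array set (x axis), with the mean and SD as bars. Wide arrays stand left of the dotted line. H2-Eb1 in the 26 FVB tumors lies between 6.92 and 7.57, while the other members of FVB tumors overlap widely with F1 and F1BX tumors.

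F1 tumors had more signal than FVB tumors for the I-A and I-E chain genes and for the invariant chain. H2-Eb1 was 3.67-fold higher, a log2 change of 1.88 with a standard error of 0.248 (limma, adjusted p = 5.55e-09). The median of H2-Eb1 in FVB tumors, 7.20, was near the median of all probe set means, 7.18. Whether H2-Eb1 was above background in FVB tumors is not known here, since the deposited values include no detection calls, and its fold rests on that level. H2-Ab1 was higher by 0.93 (1.91-fold), H2-Aa by 0.83 (1.78-fold) and Cd74 by 0.80 (1.74-fold). H2-DMa and Ciita did not pass the test. Thus 4 of 6 members were higher and none was lower, against 5.78% of all 35556 probe sets called higher, 6.47% lower and 12.3% in either direction. The median change of the 6 members was 0.82, and that of all probe sets was -0.02.

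The values of single tumors show how unlike the members were. H2-Eb1 was at 7.51 in the lowest, 9.20 in the median and 9.92 in the highest of the 22 F1 tumors, against 6.92, 7.20 and 7.57 in the 26 FVB tumors. Only 2 of the 22 F1 tumors, F21T3 at 7.51 and F21T4 at 7.52, lay within the FVB range, and the other 20 were above it. H2-Ab1 was at 9.02, 10.48 and 11.05 (lowest, median and highest) in F1 tumors, against 8.21, 9.44 and 10.23 in FVB tumors. Of the F1 tumors, 16 were above the FVB range and 6 within it. H2-Aa was at 9.47, 10.78 and 11.47 in F1 tumors, against 8.36, 9.91 and 10.91 in FVB tumors, with 10 F1 tumors above the range. Cd74 was at 9.10, 10.75 and 11.57 in F1 tumors, against 8.30, 9.78 and 10.66 in FVB tumors, with 13 F1 tumors above the range. The I-A chains and Cd74 thus shifted with overlap, whereas H2-Eb1 was nearly separate. Its SD was 0.68 in F1 tumors and 0.15 in FVB tumors.

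H2-DMa and the regulator Ciita were not shown to differ. H2-DMa averaged 7.00 ± 0.30 in F1 tumors and 6.89 ± 0.22 in FVB tumors (SD, n = 22 and 26). Its log2 fold change was 0.11 (95% interval -0.06 to 0.29, adjusted p = 0.423 from limma). Ciita averaged 6.79 ± 0.22 in F1 tumors and 6.67 ± 0.15 in FVB tumors (SD). Its log2 fold change was 0.12 (95% interval -0.02 to 0.25, adjusted p = 0.245 from limma). Both genes were below the median of all probe set means. A small change in these genes may therefore not have been detectable.

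In RefSeq (GRCm38.p6) the measured MHC members are H2-DMa at chr17:34119693-34139101, H2-Ab1 at chr17:34263227-34269418, H2-Aa at chr17:34282744-34287823 and H2-Eb1 at chr17:34305867-34316674. Ciita is at chr16:10480014-10531064, and Cd74 is on chromosome 18. To set the MHC members against a gene elsewhere, they were compared at equal Cd74, with Cd74 as a covariate of the fit. The fit had a single slope on Cd74 for the wide tumors of all backgrounds, mostly F1BX, and the differences depend on it. For H2-Eb1 the slope in F1BX tumors alone was 0.40 (standard error 0.0965). H2-Eb1 remained higher in F1 tumors by a log2 difference of 1.58 (standard error 0.248, adjusted p = 4.84e-07 from limma). H2-Ab1 was still higher, by 0.26 (standard error 0.0745, adjusted p = 0.0102 from limma). H2-Aa had a difference of 0.10 (95% interval -0.03 to 0.22, adjusted p = 0.306 from limma), H2-DMa of -0.13 and Ciita of -0.07, and none of these passed. So 2 of the 5 other members were higher at equal Cd74, against 7.28% of all probe sets called higher, 6.6% lower and 13.9% in either direction. With the slope on Cd74 left free in each background, the count was again 2 of 5. With Ciita in place of Cd74, H2-Aa passed as well (0.61, adjusted p = 0.00138 from limma). The slopes themselves were not shown to differ between F1 and FVB tumors for any of 35555 probe sets (0 at an adjusted p under 0.05 and 2380 at an unadjusted p under 0.05, limma).

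A second form of the question took the difference of each gene from Cd74 on the same array. H2-Eb1 rose more than Cd74 in F1 tumors, by 1.12 on the log2 scale (standard error 0.262, adjusted p = 0.000277 from limma). Only 0.0928% of probe sets were higher than Cd74 in this way. H2-Aa (0.03) and H2-Ab1 (0.14) were not shown to differ from Cd74. Set against Ciita instead, both passed, with 0.72 and 0.82. H2-DMa fell by 0.70 and Ciita fell by 0.69 relative to Cd74, as did 94.6% of all probe sets, so nothing is read from those calls. Of the members, H2-Eb1 had the largest difference in both forms.

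**Figure D2:**
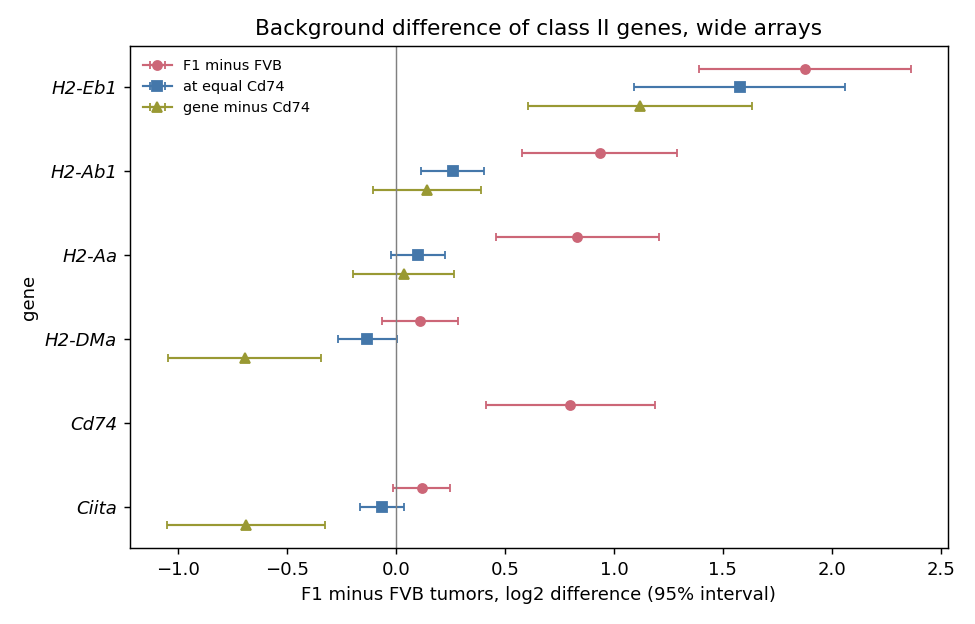
Log2 difference of F1 minus FVB tumors on wide arrays (x axis, with 95% intervals from limma) for each measured member (y axis), as fitted, at equal Cd74, and as the difference from Cd74 on the same array. H2-Eb1 is at 1.88, 1.58 and 1.12, and the interval of each excludes 0.

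Within a background, the I-A chains followed Cd74 closely. Over the first wide tumor of each mouse, H2-Aa had a Pearson r with Cd74 of 0.95 in 93 F1BX mice, 0.95 in 16 F1 mice and 0.94 in 22 FVB mice. H2-Ab1 had 0.93 in F1BX, 0.96 in F1 and 0.94 in FVB mice. Spearman rho ran from 0.91 to 0.97 over these 6 relations, and r was 0.90 or higher without the 2 mice farthest in Cd74. All 6 had the smallest permutation p that 100000 permutations give, 1e-05 (adjusted 3.8e-05 over 38 relations).

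For H2-Eb1 the relation with Cd74 passed in F1 mice and not in FVB mice. In F1 mice r with Cd74 was 0.96 and rho 0.96 (permutation p = 1e-05, adjusted 3.8e-05), and r was 0.92 without the 2 farthest mice. In FVB mice r was 0.36 and rho 0.44 (permutation p = 0.102 and 0.0392, adjusted 0.155 and 0.0745), and r was 0.55 without the 2 farthest. The first tumor of mouse F21 in this count was F21T2, at 9.19 for H2-Eb1. With all arrays in the fit, the slope of H2-Eb1 on Cd74 was 0.41 in F1 tumors (standard error 0.300) and 0.10 in FVB tumors (standard error 0.295). Their difference did not pass (0.31, adjusted p = 0.915 from limma). This fit shared a single spread over all wide tumors, while the SD of H2-Eb1 was 0.96 in F1BX and 0.15 in FVB tumors. A difference of slopes may therefore not have been detectable, and nothing is read from this test. No correlation of H2-Eb1 with Cd74 is given in F1BX mice, whose tumors fell into 2 clusters of H2-Eb1 level.

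Ciita followed Cd74 less closely. Its r was 0.67 in F1BX mice (rho 0.70, permutation p = 1e-05, adjusted 3.8e-05), 0.64 in F1 mice (rho 0.76, permutation p = 0.00766, adjusted 0.0171) and 0.43 in FVB mice (rho 0.55, permutation p = 0.0473 and 0.00825, adjusted 0.0856 and 0.0184). Without the 2 farthest mice r was 0.66, 0.78 and 0.50. H2-DMa had r of 0.70, 0.77 and 0.77 in F1BX, F1 and FVB mice (adjusted permutation p = 3.8e-05, 0.00147 and 6.33e-05).

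**Figure D3:**
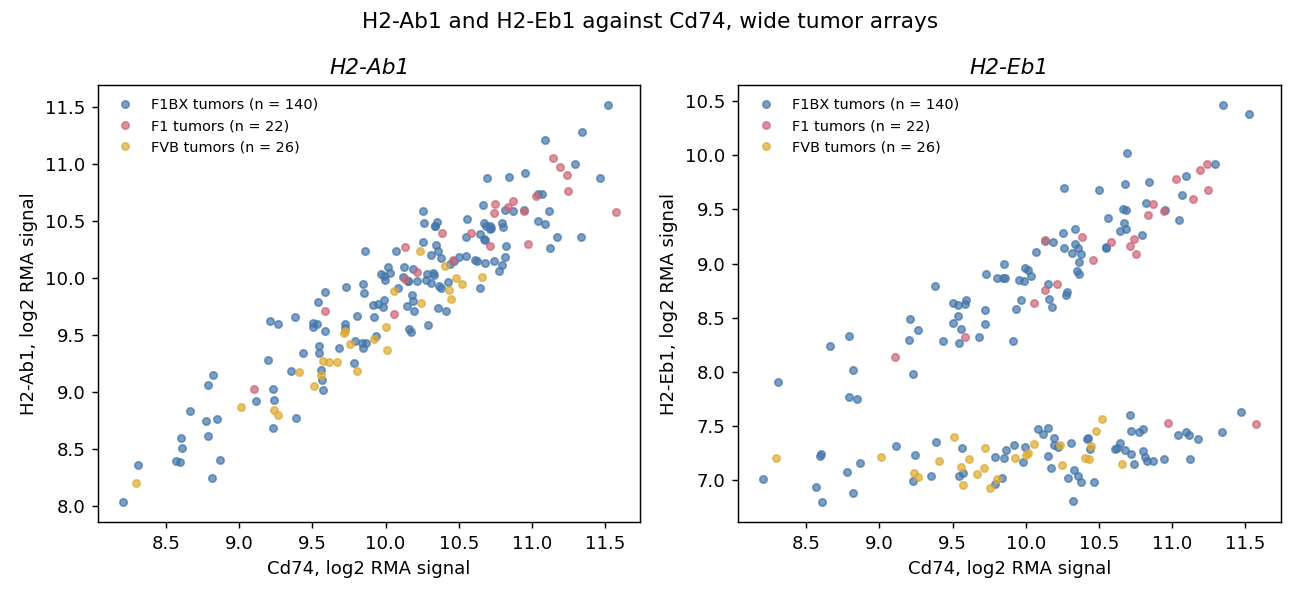
H2-Ab1 (left) and H2-Eb1 (right) on the y axis against Cd74 on the x axis, all in log2 RMA signal, for the 140 F1BX, 22 F1 and 26 FVB tumors on wide arrays. H2-Ab1 follows Cd74 in every background, while H2-Eb1 stays between 6.92 and 7.57 in FVB tumors and forms a low and a high band in F1BX tumors.

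F1BX tumors had group means between those of F1 and FVB tumors for all 6 members. H2-Aa was at 8.14, 10.25 and 11.82 (lowest, median and highest of 140), H2-Ab1 at 8.03, 9.97 and 11.52, and Cd74 at 8.20, 10.18 and 11.52. H2-DMa averaged 6.95 ± 0.32 and Ciita 6.74 ± 0.24 (SD). Each of these ranges spanned nearly all of the FVB and F1 tumors. Against FVB tumors, H2-Eb1 was higher by 0.97 (standard error 0.182, adjusted p = 6.72e-05 from limma) and H2-Ab1 by 0.42 (standard error 0.133, adjusted p = 0.0327 from limma). The other 4 members did not pass, with log2 fold changes of 0.06 to 0.32. This was 2 of 6 members higher, against 3.58% of all probe sets (3.16% were lower and 6.74% called in either direction). With the first tumor of each mouse alone, H2-Ab1 no longer passed (0.44, adjusted p = 0.0688 from limma).

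Against F1 tumors, H2-Eb1 fell by 0.90 in F1BX tumors, Cd74 fell by 0.54, H2-Aa fell by 0.52 and H2-Ab1 fell by 0.51 on the log2 scale (adjusted p of 0.00347 to 0.0351 from limma). H2-DMa (-0.05) and Ciita (-0.04) did not pass. These were 4 of 6 members lower, against 1.68% of all probe sets (1.97% were higher and 3.65% called in either direction). With the first tumor of each mouse alone, only H2-Eb1 passed (-1.02, adjusted p = 0.00286), and Cd74, H2-Aa and H2-Ab1 kept their sign at -0.44, -0.45 and -0.47. The comparisons of the 3 backgrounds share their groups of tumors.

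The mean of H2-Eb1 in F1BX tumors, 8.16 ± 0.96 (SD, n = 140), stood for few tumors. Between 7.8 and 8.2 there were 3 of the 140 tumors, while 27 lay between 7.2 and 7.4 and 13 between 8.8 and 9.0. Set against the labelled parents, 59 F1BX tumors were within the FVB range, 3 below it and 78 above it (55.7%). Of the same 140 tumors, 75 were within the range of F1 tumors and 3 above that. The other members were counted against their own FVB ranges. The share of F1BX tumors above the FVB range was 30.7% for H2-Ab1, 25% for Cd74, 12.9% for H2-Aa, 10% for H2-DMa and 8.57% for Ciita.

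Tumors of the same F1BX mouse were alike in H2-Eb1. Of 93 mice, 52 had at least 1 tumor above the FVB range and 41 had none. Among the 30 mice with 2 or more wide arrays (77 arrays), all tumors were above the range in 19 mice, none in 10 mice, and only mouse 145 was mixed. In that mouse, 145T5 was at 9.09, and 145T1 and 145T6 were at 7.43 and 6.88. Mouse 139 lay just above the range, at 7.60 and 7.63. The intraclass correlation of tumors of a mouse was 0.765 for H2-Eb1, higher than for 99.8% of the 35556 probe sets. It was nearly as high, 0.740, for Erbb2, which is not a member. For the other members it was 0.497 for H2-Aa, 0.485 for Cd74, 0.401 for H2-Ab1, 0.398 for H2-DMa and 0.285 for Ciita. The median of all probe sets was 0.109. For Cd74, 3 of the 30 mice had all tumors above the FVB range, 18 had none and 9 were mixed.

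**Figure D4:**
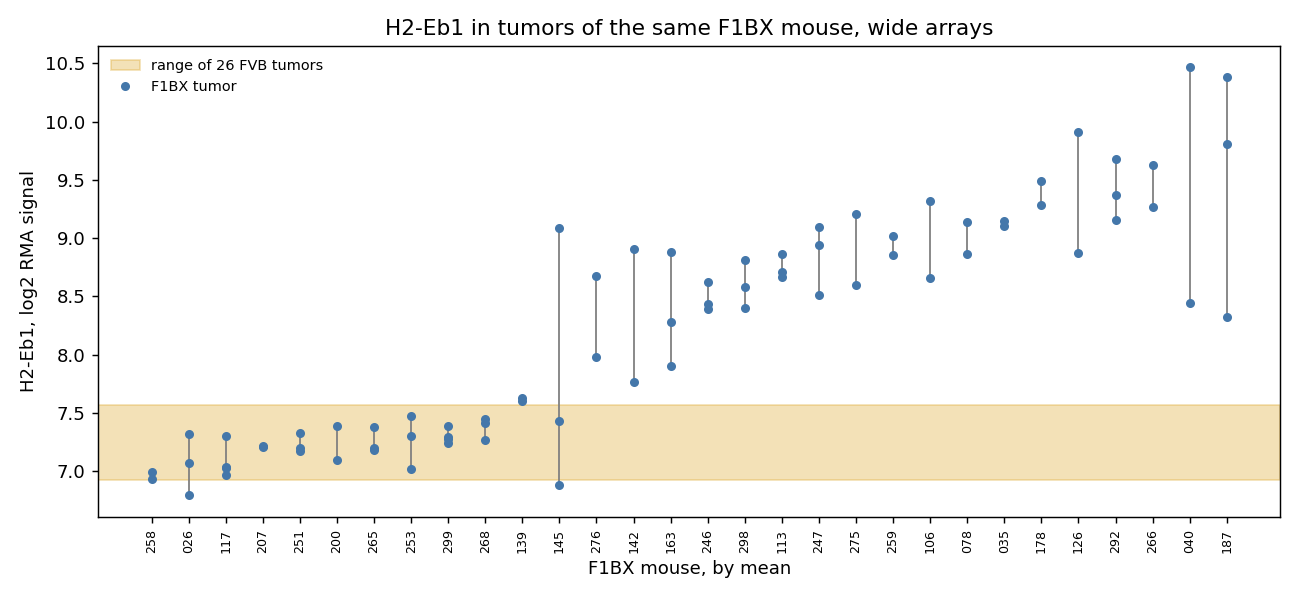
H2-Eb1 in log2 RMA signal (y axis) in the tumors of the 30 F1BX mice with 2 or more wide arrays (x axis, ordered by mean), with a line from the lowest to the highest tumor of each mouse. The band is the range of the 26 FVB tumors, 6.92 to 7.57, and mouse 145 alone has tumors on both sides of its upper edge.

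Apart from the members themselves, the 5 genes whose levels ranked most like H2-Eb1 over 93 F1BX mice were all on chromosome 17. As the mice fell into 2 clusters of H2-Eb1 level, these values are a description. The genes were Vars (Spearman rho 0.72), a tRNA synthetase gene, then D17H6S56E-5 (0.69), H2-M2 (0.65), Ring1 (0.63), a Polycomb gene, and H2-K2 (0.55), among 18617 genes. Cd74 was most like the members H2-Aa (0.94) and H2-Ab1 (0.92), and outside the members most like H2-Ea (0.78), Tifab (0.71), Cybb (0.71), Il10ra (0.70) and Neurl3 (0.70), of which H2-Ea alone is on chromosome 17. Cybb encodes the NADPH oxidase subunit of phagocytes. Ciita had 0.65 to 0.70 with Cd74, H2-Aa, H2-Ab1 and H2-DMa, and outside the members was most like H2-Ea (0.61), Cnpy4 (0.59), Elk3 (0.56), Itgal (0.55) and Tlr9 (0.55).

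D17H6S56E-5, Vars and Ring1 were picked here for their likeness to H2-Eb1 in these F1BX mice. Their agreement in F1BX tumors was largely set by that choice and is a description only. D17H6S56E-5, 733 kb from H2-Ab1 on chromosome 17, divided the tumors nearly as H2-Eb1 did. It was above its own FVB range in 76 of the 78 F1BX tumors that were so for H2-Eb1 and in 4 others. Vars was above its FVB range in 72 of the 78 and in 3 others, and Ring1 in 48 of the 78 and in 6 others. In F1 tumors H2-Eb1, D17H6S56E-5 and Vars were above the FVB range in the same 20 of 22, and Ring1 was in 16 of these. F21T3 and F21T4 were within it for all of these genes, with D17H6S56E-5 at 8.76 and 8.96 and 12.68 in F21T2 of the same mouse. Mouse 145 had D17H6S56E-5 at 12.50 in 145T5 and at 9.17 and 9.47 in 145T1 and 145T6. Cd74 was at 11.57 and 10.97 in F21T3 and F21T4 and at 10.58 in F21T2, so their low H2-Eb1 did not go with low Cd74. Without the tumors of mouse F21, H2-Eb1 was higher in F1 than in FVB tumors by 2.01. Whether these arrays carry the right mouse names was not tested. F21T3 and F21T4 set the lower end of H2-Eb1 in F1 tumors and enter its slope on Cd74 over all arrays. With the first tumor of each mouse alone, the slope in F1 minus that in FVB tumors was 0.73 and did not pass (adjusted p = 0.839 from limma). That fit, too, shared a single spread over the 3 backgrounds.

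Around H2-Ab1, H2-Aa and H2-Eb1, which were all higher in F1 tumors, the other genes were counted by distance. Within 0.1 Mb of H2-Ab1, none of 8 other genes passed the test between F1 and FVB tumors (limma), while Psmb9 and Tap1 had an unadjusted p under 0.05. These were the immunoproteasome and peptide transporter genes Psmb9, Psmb8, Tap1 and Tap2, and H2-Ob, H2-Eb2, H2-Ea and Btnl2, with log2 fold changes of -0.49 to 0.07. Within 0.5 Mb, 5 of 48 genes were higher in F1 tumors (Pfdn6, AA388235, Ring1, H2-Ke6 and Agpat1, by 0.14 to 0.29) and 2 were lower (Btnl1 and Btnl5-ps), or 14.6% against 12.3% of all probe sets. Within 1 Mb it was 20.6% of the genes, with D17H6S56E-5 at 2.69 (adjusted p = 4.76e-08) and Vars at 0.72 (adjusted p = 1.10e-06 from limma). Within 5 Mb it was 20.5%. The array probes follow the reference sequence, and whether base differences between the strains under the probes move these signals was not tested.

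**Figure D5:**
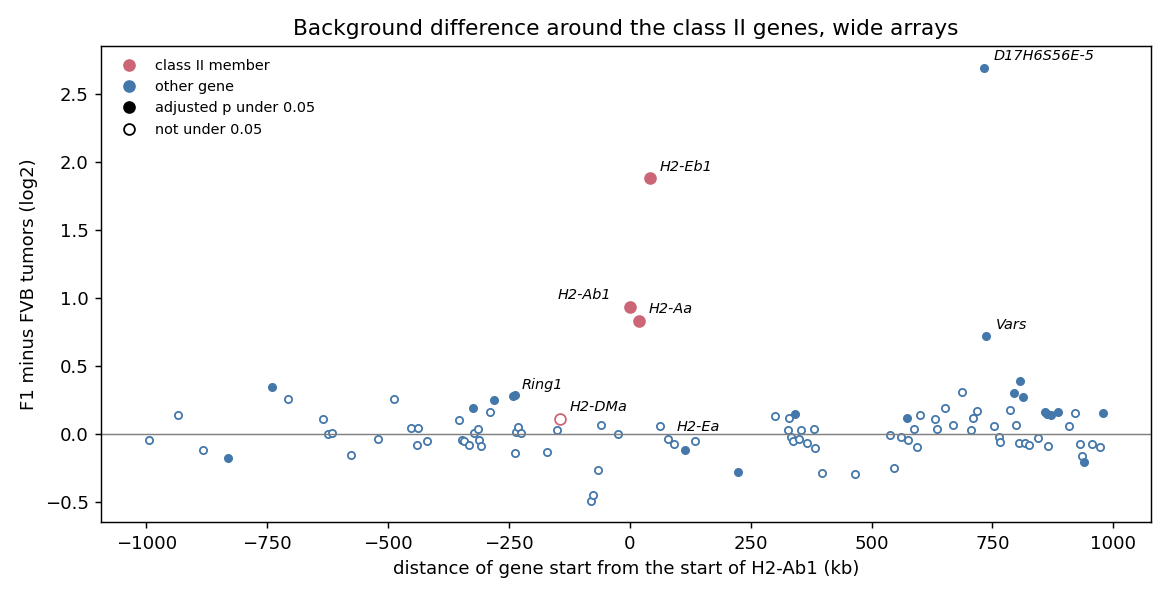
Log2 difference of F1 minus FVB tumors on wide arrays (y axis) for genes within 1 Mb of H2-Ab1 by the distance of their starts in kb (x axis), class II members in red and filled points at an adjusted p under 0.05. H2-Eb1 at 1.88 and D17H6S56E-5 at 2.69 stand above the other genes.

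Other genes of the pathway were counted by list between F1 and FVB tumors. Beside these counts, 12.3% of all probe sets were called (5.78% higher and 6.47% lower), so nothing particular is read from them. None of 6 other class II region genes passed, among them H2-Oa and H2-Ob, the chains of the H2-DM inhibitor H2-O, with -0.13 and -0.00. None of 9 class I presentation genes and none of 9 class II antigen processing genes passed. Among 7 promoter factors, Nfya was higher (0.24, adjusted p = 0.00287) and Nfyc lower (-0.52, adjusted p = 0.000172 from limma). Among 8 genes of the interferon gamma signal to Ciita, Ifngr2 was higher (0.35) and Jak1 lower (-0.77), and Ifng itself (-0.10, adjusted p = 0.133) did not pass. Of 6 genes of a co-stimulation list, which also holds the inhibitory ligand genes Cd274 and Pdcd1lg2, 1 was higher and none was lower. The median changes of these lists were between -0.09 and 0.08.

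Some macrophage markers differed with the background too. Of 11 markers, 4 were higher in F1 tumors: Adgre1 by 0.49, C1qc by 0.49, C1qb by 0.45 and C1qa by 0.36 (adjusted p of 0.00568 to 0.0378 from limma). The other markers did not pass, the lowest being at -0.05. Of all probe sets, 5.78% were called higher. Their mean level ran from 8.32 to 10.48 in F1 tumors and from 8.19 to 9.66 in FVB tumors. At equal Cd74 none of the 11 passed, but these cells may themselves make Cd74, so nothing is read from this. Of 10 dendritic cell markers, Itgax alone was higher (0.72), and none of 8 B cell or 7 T cell markers passed. The part of these cells in the class II differences was not tested. In F1BX mice the mean of the dendritic cell markers had r = 0.59 with Cd74 (rho 0.63, permutation p = 1e-05, adjusted 3.8e-05). T cell markers had 0.46 and macrophage markers 0.42 (rho 0.50 and 0.39, adjusted permutation p = 6.33e-05 and 8.77e-05). B cell markers had 0.14 (rho 0.12, adjusted permutation p = 0.229). In F1 mice macrophage markers had the highest r of these lists, 0.70 (rho 0.51, adjusted permutation p = 0.00646 and 0.0841), and r was 0.49 without the 2 farthest mice. In FVB mice macrophage markers had 0.52 (rho 0.52, adjusted permutation p = 0.0277 and 0.0281). Dendritic cell markers had 0.39 in F1 and 0.44 in FVB mice, and T cell markers had 0.05 and 0.31, none of which passed (adjusted permutation p of 0.079 to 0.842). B cell markers had 0.38 in F1 and -0.06 in FVB mice, which did not pass either (adjusted permutation p = 0.207 and 0.821). The B cell marker levels were at 5.59 ± 0.16 in F1BX tumors (SD).

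Tumors had less class II signal than normal glands on the narrow arrays (26 tumors, 8 glands). Cd74 fell by 2.26 on the log2 scale, with 9.74 ± 0.94 in tumors and 12.01 ± 0.52 in glands (SD). H2-Aa fell by 1.45, H2-Ab1 fell by 1.40, H2-Eb1 fell by 1.33 and Ciita fell by 1.06. H2-DMa had -0.70, which passed the false discovery rate of 0.005 but not the fold of 2 asked for here. Thus 5 of 6 members were called lower, against 4.76% of all probe sets (12.1% in either direction). Adjusted p ran from 7.72e-08 for Ciita to 0.000973 for H2-Aa (limma). With tumors and glands each given their own spread, only Cd74 and Ciita were called.

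The overlap of tumors and glands differed by gene. Cd74 was at 6.71, 9.76 and 11.34 (lowest, median and highest) in the 26 tumors and at 11.08, 12.06 and 12.60 in the 8 glands. Ciita was at 6.48, 6.86 and 7.26 in tumors and at 6.80, 7.96 and 9.08 in glands, with 1 gland, F1 wild type replicate 2, at 6.80. H2-Eb1 was at 7.91, 8.90 and 10.34 in tumors and at 8.70, 10.36 and 11.38 in glands. H2-Aa ran from 7.05 to 11.72 in tumors and from 9.26 to 12.62 in glands, the lowest gland being FVB MMTV-ErbB2 gland replicate 3. Without this gland the change of H2-Aa was -1.81. Tumor 092T1 was the lowest of the 26 for Cd74, H2-Aa and H2-Eb1. It had Erbb2 at 8.32 and a mean of luminal markers of 7.88, while Erbb2 averaged 11.97 ± 0.99 (SD) in the 26 tumors. F1_26T1 and 076T1 were also low in Erbb2, at 9.72 and 10.31.

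Genes of lymphocytes and of the interferon gamma signal were lower in tumors as well. All 8 B cell markers and all 7 T cell markers were called lower, such as Cd79a (-2.46), Ms4a1 (-2.71) and Cd3e (-1.77). Irf1, the interferon gamma target that drives Ciita, fell by 2.48, and 5 of the 8 genes of that list were lower. Of the co-stimulation list, 4 of 6 genes were lower, with Cd86 at -3.15 and the inhibitory ligand gene Cd274 at -3.58. H2-Ea (-2.27), H2-Eb2 (-1.09) and H2-Ob were lower, 3 of 6 other class II region genes. Of the 7 promoter factors none was lower and Nfyc was higher (1.22), and of the 9 class II antigen processing genes none was lower and Marchf8 (1.33) and Sppl2a (1.05) were higher. None of 9 class I presentation genes was called. The macrophage markers were mixed, C1qa (1.19) and C1qc (1.11) being higher and Cd14 (-1.76) lower, and 2 of 10 dendritic cell markers, Ccr7 and Irf8, were lower. Of the basal epithelium markers, 5 of 7 were lower. The part of lymphocytes and of basal cells in the class II difference was not tested.

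Within F1 mice, Cd74, Ciita and H2-DMa passed. They fell by 2.10, 1.43 and 0.88 in the 6 narrow F1 tumors against the 2 F1 MMTV-ErbB2 glands (adjusted p = 0.0335, 1.84e-05 and 0.00358 from limma). This was 3 of 6 members lower, against 8.18% of all probe sets (9.51% were higher and 17.7% called in either direction). Without either of the 2 glands Cd74 no longer passed (adjusted p = 0.211 and 0.160), and without replicate 1 H2-DMa no longer passed (adjusted p = 0.118 from limma). H2-Aa had -1.48 (adjusted p = 0.186) and H2-Ab1 had -1.11 (adjusted p = 0.228 from limma), which did not pass. H2-Eb1 had 0.13 (95% interval -0.85 to 1.11). It was at 8.43 to 9.98 in these tumors and at 9.76 and 8.70 in the glands.

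Of the members, H2-Eb1 had the largest change between the 2 groups of F1 glands. It was at 9.76 and 8.70 in the F1 MMTV-ErbB2 glands and at 11.16, 10.77 and 11.07 in the F1 wild type glands, with no overlap. Its change of -1.77 did not pass (adjusted p = 0.149 from limma). Ciita went the other way, at 8.31 and 8.08 in MMTV-ErbB2 glands and 7.63, 6.80 and 7.58 in wild type glands (0.86, adjusted p = 0.101 from limma). Of the 6 members none was called by limma, against 0.92% of all probe sets, while H2-Eb1 and Ciita had an unadjusted p under 0.05. The B cell markers Cr2 (3.23), Fcer2a and Pax5 and the T cell markers Cd3d, Cd2, Cd4 (1.58) and Cd5 were higher in the MMTV-ErbB2 glands. Also higher in the MMTV-ErbB2 glands were 2 of 10 dendritic cell markers and 1 of 6 genes of the co-stimulation list. The mean of the B cell markers was at 9.17 and 8.81 in these glands and ran from 7.06 to 7.72 in wild type glands. The mean of 7 basal epithelium markers was 8.87 ± 0.67 in the MMTV-ErbB2 glands and 10.57 ± 0.03 in wild type glands (SD), with no overlap. The mean of 8 luminal markers ran from 9.59 to 10.56 in the MMTV-ErbB2 glands and from 11.20 to 11.77 in wild type glands. Of these 15, Myh11 alone was called (-2.16, adjusted p = 0.000528 from limma). These calls used a spread shared with the narrow tumors, and in a fit of the 8 glands alone 0 probe sets were called. The part of lymphocytes, dendritic cells and epithelium in the Ciita and H2-Eb1 values was not tested.

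FVB glands did not show the low H2-Eb1 of FVB tumors. H2-Eb1 was at 9.76 and 8.70 in F1 MMTV-ErbB2 glands, against 11.38, 9.50 and 9.94 in FVB MMTV-ErbB2 glands. The difference of -1.04 did not pass (95% interval -2.14 to 0.05, adjusted p = 0.326 from limma). The spread used for this test was shared with the narrow tumors. None of the 6 members passed between these glands by limma, and none had an unadjusted p under 0.05, against 0.0112% of all probe sets called (0.00844% higher and 0.00281% lower), which are 4 probe sets. The background effect on H2-Eb1 in tumors minus that in glands was 2.92 (standard error 0.778, adjusted p = 0.00548 from limma). It was the single member called of 6, against 4.89% of all probe sets called in that direction and 12% in either. The call was lost without F1 MMTV-ErbB2 gland replicate 2 (2.39, adjusted p = 0.107) and without FVB MMTV-ErbB2 gland replicate 3 (3.09, adjusted p = 0.236). FVB tumors were all on wide arrays and glands all on narrow arrays, so tissue and array set cannot be told apart here.

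Some members differed between narrow and wide arrays of F1BX tumors. Apart from 2 repeats the sets held different tumors, so array set and tumors cannot be told apart. On narrow arrays, H2-Eb1 was higher than on wide arrays by 0.65 and Ciita by 0.16, while Cd74 fell by 0.40 and H2-DMa fell by 0.22 (adjusted p of 0.00339 to 0.0306 from limma). H2-Aa (0.02) and H2-Ab1 (0.01) did not pass. Since 84.8% of all probe sets differed between the sets (37.9% higher and 46.9% lower), the count of 4 of 6 members says nothing particular. All 20 narrow F1BX tumors were above the wide FVB range of H2-Eb1, at 7.91, 8.72 and 10.34 (lowest, median and highest). By their names, 2 F1BX tumors were measured in both sets. For 035T1, H2-Eb1 was at 9.23 on the narrow and 9.11 on the wide array, and Cd74 at 9.53 and 10.07. For 246T1, H2-Eb1 was at 9.28 and 8.62, and Cd74 at 10.01 and 9.59.

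On the narrow arrays alone, F1BX and F1 tumors were not shown to differ. H2-Eb1 averaged 8.83 ± 0.63 in F1BX tumors and 9.36 ± 0.59 in F1 tumors (SD, n = 20 and 6). Its log2 fold change of -0.53 did not pass (95% interval -1.09 to 0.03, limma). Changes of the other 5 members ran from -0.33 for H2-Aa to 0.13 for Ciita. No probe set of 35556 was called in this comparison (0%), and 1170 had an unadjusted p under 0.05 (limma).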

How the data were processed

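The Affymetrix mouse gene 1.0 ST arrays were 214 of tumor RNA, 2 of them repeats of a tumor by name, and 8 of normal gland RNA. The values deposited by the authors are log2 signals normalized by RMA for 35556 probe sets, and the RMA version was not given in the sources used here. Genes were named through the platform annotation, where 21789 probe sets carried 1 symbol. The members, lists and tests were chosen with earlier results of these data known.

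Groups were compared on the deposited log2 values with limma 3.58.1 in R 4.3.3 (lmFit and eBayes). Mouse was a random block on wide arrays (duplicateCorrelation on every 10th probe set, correlation 0.0906 for the backgrounds), and narrow arrays of a background were of different mice. This correlation served all probe sets, while the members had 0.285 to 0.765 within F1BX mice. Standard errors and p-values of the members on wide arrays may therefore be too small. Fits with the first array of each mouse do not have this limit. P-values were adjusted by Benjamini-Hochberg over all probe sets. Calls were made at 0.05, or at 0.005 with a fold of 2 for tumors against glands. Wide arrays had an interquartile range over 2.8. Genes named were the members, the listed genes, Erbb2, genes called within 0.5 Mb of H2-Ab1 and the 5 genes most like Cd74, H2-Eb1 and Ciita. Single mice and the counts by array of D17H6S56E-5, Vars and Ring1 were chosen after their values were seen. The fits with a slope on Cd74 for each background were also added after the data were seen. Scripts were tested on simulated data. The number of arrays limits the precision. Labels do not say that glands of a group came from separate animals, so p-values measure the spread between these samples. Apart from fits of the glands alone and the fit with weights by tissue, glands shared their estimate of spread with the tumors. P-values and intervals of the gland comparisons therefore rest largely on the spread between tumors.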

Additional observations from a re-analysis of the deposited data

Results flagged for a closer look

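H2-Aa was at 9.26 in FVB MMTV-ErbB2 gland replicate 3, far below the other 7 glands, which lay between 11.86 and 12.62. The gap took up 0.773 of the whole range of the glands. This array also had the lowest interquartile range of all, 1.86. In all 18 tests of this kind were made over 3 groups of arrays and 6 genes, and chance marks about 1 in 20.

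The background effect on H2-Eb1 was larger in tumors than in glands by 2.92 on the log2 scale, by a test of the difference itself (adjusted p = 0.00548 from limma). H2-Eb1 was higher in F1 than in FVB tumors by 1.88 and had -1.04 between F1 and FVB MMTV-ErbB2 glands. The call was lost without F1 MMTV-ErbB2 gland replicate 2 (2.39, adjusted p = 0.107) and without FVB MMTV-ErbB2 gland replicate 3 (3.09, adjusted p = 0.236). Tissue and array set cannot be told apart in this difference.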

How the results depend on the processing

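The 4 members higher in F1 than in FVB tumors passed under all 8 alternatives run (without 051T1 and 063T1 and without mouse F21 among them), with adjusted p of 3.07e-10 to 1.23e-08 for H2-Eb1 and 0.00224 to 0.0299 for Cd74 (limma). With the first array of each mouse, 1 member passed in F1BX against FVB tumors (2 with all arrays) and 1 in F1BX against F1 tumors (4 with all arrays). Quantile normalization left 2 of the 4 members called between narrow and wide F1BX arrays. With array weights by tissue (1.29 for tumors, 0.435 for glands), 2 of 5 members stayed called in tumors against glands, and leaving out 1 gland gave 4 to 5. With all 5 F1 glands, 5 members were lower in F1 tumors (3 with 2 glands), while calls over all 35556 probe sets rose from 6290 to 11027. In that setting the F1 minus FVB difference was unlike in tumors and glands for 2 members (1 with 2 glands). Calls over all probe sets rose there from 4280 to 5319. This setting mixes wild type glands into comparisons of MMTV-ErbB2 mice, so genotype and background cannot be told apart and nothing is read from the added calls. The cause of the changes in this paragraph was not tested.

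No called member reversed, and these uncalled values changed sign. H2-DMa at equal Ciita had 0.013, and the slope of H2-Ab1 with the first array of each mouse had 0.0054. With all 5 F1 glands, H2-Eb1 had -0.93 in F1 tumors against F1 glands and 0.019 in F1 against FVB glands. With 1 gland left out, H2-Eb1 ran from -0.40 to 0.66 in F1 tumors against F1 glands. Between F1 and FVB glands, H2-Aa then ran from -0.36 to 1.32, H2-Ab1 from -0.65 to 0.59, H2-DMa from -0.16 to 0.15, Cd74 from -0.54 to 0.22 and Ciita from -0.43 to 0.19. Between MMTV-ErbB2 and wild type glands, H2-Aa ran from -0.066 to 0.20, H2-Ab1 from -0.63 to 0.14 and Cd74 from -0.015 to 0.35. In the background effect of tumors minus glands, H2-Aa ran from -0.49 to 1.196, H2-DMa from -0.042 to 0.27 and Ciita from -0.072 to 0.55.

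Same-numbered glands correlated between -0.187 and 0.394 in their deviations, so the numbers only name samples. With the number as a replicate block in the 8 glands alone, 0 members were called in both gland comparisons, as without it, and H2-Ab1 had -0.28 between F1 and FVB glands, and H2-Aa -0.42 and Cd74 -0.079 between MMTV-ErbB2 and wild type glands.

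Counts over all probe sets moved as follows. F1BX against FVB tumors had 2398 calls, and 1414 with the first array of each mouse. Relative to Cd74 there were 33669 (33 higher), and relative to Ciita 5175 (428 higher). F1 tumors against F1 glands had 6290, 11027 with all 5 glands, and 2951 to 3083 with a gland left out. F1 against FVB glands had 4, 440 with all 5 F1 glands, 0 with the 8 glands alone, with or without the block (481 and 321 at an unadjusted p under 0.05 without and with it), and 1 to 6206 with a gland left out. MMTV-ErbB2 against wild type glands had 327, 0 with the 8 glands alone, with or without the block (1726 and 1601 at an unadjusted p under 0.05), and 51 to 268 with a gland left out. Tumors against glands had 4311 (2619 higher, 1692 lower), 10026 over all arrays, and 18528 without a fold (8013 higher, 10515 lower). The background effect of tumors minus glands had 4280, and 11 to 9713 with a gland left out.

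The filter on low signal left out H2-DMa and Ciita. No member had another probe set of its own symbol, and on narrow arrays no mouse was repeated within a comparison, so neither alternative gave a value.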
